A study of Monodelphis domestica with 8 samples.

Results

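The regions described here are H3K27me3 peaks of opossum fetal brain that carried no H3K4me3 and stood outside the long H3K27me3 domains. They were chosen from the authors' H3K27me3 list on chromosomes 1 to 8 as the peaks that shared no base with any H3K4me3 peak and did not belong to a long domain. A long domain is a run of H3K27me3 peaks less than 5 kb apart whose joined length exceeds 20 kb. The rule found 2935 peaks, 39.2% (exact 95% interval 38.1% to 40.3%) of the 7485 autosomal H3K27me3 peaks and part of the 17394 peaks of the list. They are called H3K4me3-free peaks below. Of the other autosomal H3K27me3 peaks, 3478 overlapped H3K4me3 outside long domains, 616 lay without H3K4me3 in long domains, and 456 lay with H3K4me3 in long domains.

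The chromatin came from female gray short-tailed opossums (Monodelphis domestica), a laboratory marsupial, at embryonic day 13. Each of the 2 chromatin pools combined 2 sister fetuses. One pool came from an LL2 mother and an LL2 father, the other from an LL1 mother and an LL2 father. Chromatin of each pool was divided among antibodies to H3K4me3, H3K9Ac, H3K9me3 and H3K27me3, so all groups share stage, sex, tissue and animals and differ in the antibody. Whole fetal brain is a mixture of cells, and a peak says nothing of which cells carried the mark. Both libraries of a mark point to 1 deposited list, so no value here has a replicate error and no difference was tested. Intervals cover the counting of peaks only, and neighbouring peaks are not independent. The lists hold no read counts, so depth is unknown. Genes and sequences are not given, because no annotation or genome in the coordinates of the lists was used here.

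H3K27me3 is written by Polycomb repressive complex 2 and read by Polycomb repressive complex 1, and it is best known for keeping developmental regulator genes silent in cells where they are not needed. In embryonic tissue it often sits at CpG-rich promoters together with H3K4me3, a mark of promoters, and the pair is called bivalent. H3K27me3 without H3K4me3 is found on the flanks of such promoters, across silent genes and at inactive regulatory elements away from promoters. H3K9Ac marks active promoters and enhancers, and H3K9me3 marks constitutive heterochromatin.

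The H3K4me3-free peaks were mostly narrow and low in score. Their median width was 1160 bp (quartiles 858.5 and 1768 bp, range 398 to 15622 bp). The median of the authors' peak score, a value with no stated unit that is used within this list only, was 81.9 (quartiles 58.6 and 155), and the lowest score of a member was 50.03. Of the 2935 peaks, 1755 (59.8%) scored under 100. The peaks with H3K4me3 outside long domains had a median width of 1654 bp and a median score of 140, and 36.4% scored under 100. The H3K27me3 peaks without H3K4me3 in long domains were wider and stronger again, with medians of 2031.5 bp and 200. Because of their small widths the H3K4me3-free peaks covered 4.64 Mb, 24.9% of the autosomal H3K27me3 bases, although they were 39.2% of the peaks. The rule took its members from these H3K27me3 calls and left out long runs, so widths and scores describe the members and test nothing. Near the lowest score, H3K4me3 or H3K27me3 just under the authors' threshold would not be listed.

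**Figure D1:**
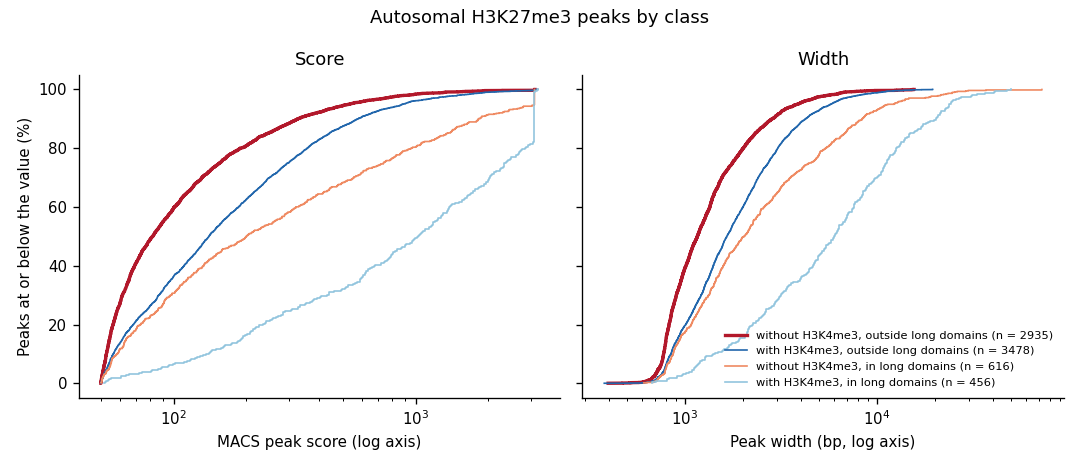
Cumulative distribution of the authors' peak score (left, log axis) and of peak width in bp (right, log axis) for the 4 classes of autosomal H3K27me3 peaks. The curve of the 2935 H3K4me3-free peaks outside long domains lies farthest to the left, with medians of 81.9 and 1160 bp, and the step at 3100 in the score is a value that many peaks share.

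Width and score went together among the members (Spearman rho 0.88 across the 2935 peaks, which share 1 list and its calling). When the members were divided into 5 equal classes of score, the median width was 807 bp in the lowest class and 2802 bp in the highest. Peaks standing alone made up 52.1% of the lowest class and 28.8% of the highest. Distance from H3K4me3 had no such order, with medians of 14.1, 15.3, 11.2, 14.0 and 13.5 kb from the lowest class to the highest.

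A small group of members scored highest and continued this trend to greater widths. A score of 1000 or more was held by 47 members (1.60%), against 7.09% of all autosomal H3K27me3 peaks and 3.82% of those with H3K4me3 outside long domains. These 47 had a median width of 6688 bp. Of them 13 (27.7%) were alone, against 40.9% of all members. Within 5 kb of an H3K4me3 peak lay 19 (40.4%), near the 36.5% of all members. None of the 47 overlapped H3K9Ac or H3K9me3. With 3 counts taken as the limit behind a count of 0, the approximate upper bound of the share is 6.38%, not an exact interval. Chromosome 1, with 629 of the 2935 members, held 17 of the 47. Chromosome 5, with 243 members, held 9, and chromosome 4, with 397, held 8. The rule caps this group, since a peak wider than 20 kb is itself a long domain.

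The highest listed score, 3114, belonged to chr2:200124242-200136934, a peak of 12693 bp that was alone in its domain. Its nearest H3K4me3 peak lay 4.38 kb away and its nearest H3K9Ac peak 145 kb away. The value 3100 was shared by 7 members, of which 4 are named with it by chromosome and position. Of the 132 autosomal H3K27me3 peaks that scored 3100 or more, 125 had exactly 3100, as at a cap. The order among these scores is therefore not read as a difference in strength. The first, chr1:262008642-262023781, spanned 15140 bp and lay 105 kb from the nearest H3K4me3 peak. That H3K4me3 peak, with a score of 2613 in its own list, carried both H3K9Ac and H3K27me3. Chr1:559995056-560007496 spanned 12441 bp, was alone, and lay 13.6 kb from a weak H3K4me3 peak with a score of 87.2. Chr5:95071918-95087072 spanned 15155 bp, and 90.1 kb separated it from the nearest H3K4me3 peak, which carried H3K9Ac. Chr4:99820011-99834502 spanned 14492 bp and differed from these in lying only 1004 bp from H3K4me3, in a domain of 3 peaks of which 1 overlapped that mark. These strong regions were thus found both beside H3K4me3 and far from it. The widest member was chr5:228373032-228388653, at 15622 bp and 38.9 kb from H3K4me3. The widest that stood alone was chr5:256329661-256343305, with 13645 bp, a score of 3100 and 69.0 kb to H3K4me3. All 7 of these regions lay 90.8 kb or more from H3K9Ac.

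The members were next placed in relation to the H3K4me3 peaks they did not touch. The median distance from edge to edge was 13.9 kb (quartiles 1.88 and 46.1 kb). Of the 2935 peaks, 521 (17.8%) lay within 1 kb of an H3K4me3 peak, 1070 (36.5%, 34.7% to 38.2%) within 5 kb, 2242 (76.4%) within 50 kb and 2590 (88.2%) within 100 kb. Only 15 lay beyond 500 kb. The H3K4me3-free peaks of long domains had a shorter median distance, 7.49 kb, yet a smaller share of them lay within 1 kb (11.4%) and beyond 100 kb (4.87%, against 11.8% of the members). The distances of the members thus spread more widely in both directions.

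**Figure D2:**
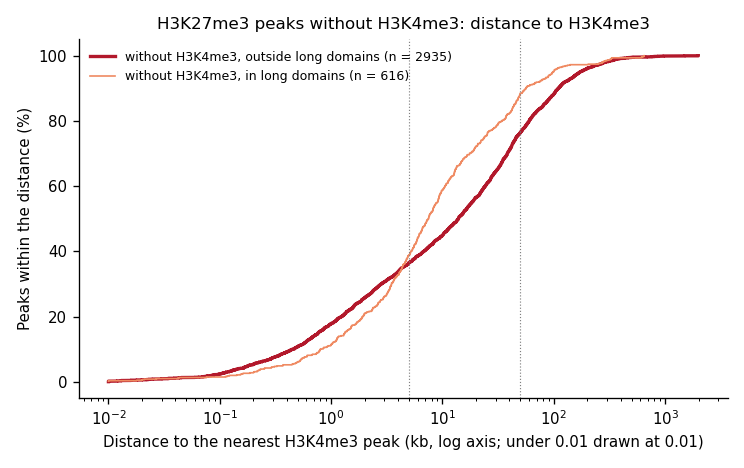
Share of H3K27me3 peaks without H3K4me3 (percent, vertical) that lie within a given distance of the nearest H3K4me3 peak (kb, log axis), outside and inside long domains, with dotted lines at 5 and 50 kb. Outside long domains 36.5% lie within 5 kb and 76.4% within 50 kb, and the curves cross near 5 kb.

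Members near to H3K4me3 and far from it had similar medians of width and score. The median width was 1165 bp within 5 kb, 1211.5 bp from 5 to 50 kb and 1094 bp beyond 50 kb. The median scores were 81.4, 86.1 and 76.7 in the same order. The share standing alone differed. Within 5 kb of H3K4me3, 22.7% of members were alone in their domain, against 48.0% of the 1172 from 5 to 50 kb and 57.1% of the 693 beyond 50 kb. Of the 1070 near members, 714 (66.7%) had an H3K27me3 peak with H3K4me3 less than 5 kb away. Such a peak can lie close only where H3K4me3 does, so this share is not set against that of the farther members. A member with such a peak is joined to it and cannot be alone. The low share alone within 5 kb thus follows in part from the joining rule, and the 3 shares alone are not like for like.

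The H3K4me3 peaks beside members often overlapped H3K27me3 and seldom overlapped H3K9Ac. In a mixture of cells, overlap of peaks does not show that the marks lay together in the same cells, so these peaks are not called bivalent. The 1070 near members had 882 different nearest H3K4me3 peaks, of which 62.5% (59.2% to 65.7%) overlapped H3K27me3 and 15.6% (13.3% to 18.2%) overlapped H3K9Ac. Among all 22086 autosomal H3K4me3 peaks these shares were 16.5% and 42.4%. The 1125 H3K4me3 peaks nearest to the members beyond 5 kb were in between, with 33.3% overlapping H3K27me3 and 26.5% overlapping H3K9Ac. The median H3K4me3 score was 183 for the near group, 201 for the far group and 344 for all. Since H3K27me3 peaks cluster, a neighbour of a member is more likely to carry H3K27me3, and the part of clustering in these shares was not tested. Members lay within 5 kb on both sides of 92 H3K4me3 peaks, and 71 of these (77.2%) overlapped H3K27me3 themselves while 8 (8.70%) overlapped H3K9Ac. Of the 927 H3K4me3 peaks with members on 1 side, 58.9% overlapped H3K27me3 and 17.2% H3K9Ac.

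The members formed short runs as well as standing singly. Peaks less than 5 kb apart were joined for this. Of the 2935 peaks, 1201 (40.9%, 39.1% to 42.7%) were alone, and 38.4% of all autosomal H3K27me3 peaks were. The 38.4% includes the peaks of long domains, where only a peak wider than 20 kb can be alone. These shares are therefore not like for like. A further 916 lay in 366 domains of several peaks that all lacked H3K4me3, with a median length of 4.87 kb. The remaining 818 shared 579 domains with peaks that overlapped H3K4me3, and these mixed domains had a median length of 5.92 kb. Members alone in their domain had a median score of 69.8 and a median width of 1040 bp. Those in domains of 2, 3, 4 and 5 or more peaks had median scores of 89.0, 94.5, 99.9 and 97.2.

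**Figure D3:**
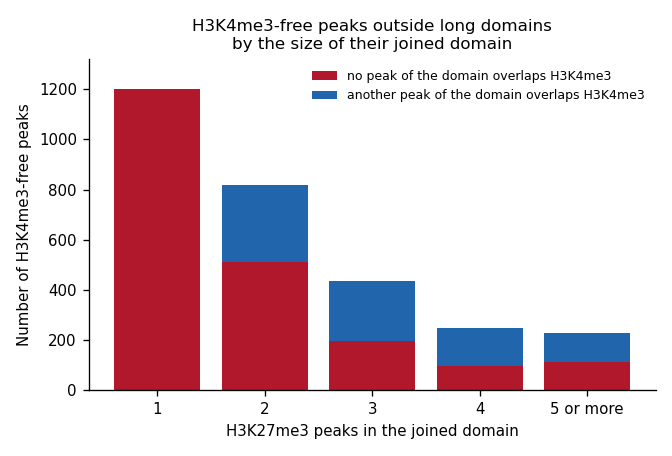
Number of H3K4me3-free peaks (vertical) by the number of H3K27me3 peaks in their joined domain, divided by whether another peak of the domain overlaps H3K4me3. The bars hold 1201, 819, 436, 249 and 230 members from left to right, and in the last 4 bars 307, 241, 153 and 117 share their domain with an H3K4me3-overlapping peak.

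In the mixed domains the peak with H3K4me3 was usually the stronger. The 818 members had a median width of 1172.5 bp and a median score of 83.1, and the 775 peaks with H3K4me3 in the same domains 2133 bp and 215. A member held the highest score in 142 of the 579 domains (24.5%). The members of mixed domains were thus smaller than their neighbours with H3K4me3. A wide peak beside H3K4me3 is more likely to touch it and be left out by the rule. Because score goes with width, both differences may follow in part from the rule, which was not tested. The median width of these members was near the 1160 bp of all members, which include the lone members at 1040 bp. All members in domains of 2, 3, 4 and 5 or more peaks, mixed or not, had medians of 1239, 1248, 1295 and 1247 bp. H3K9Ac was present in 68 mixed domains (11.7%) and in 10 of the 1567 domains made only of members (0.638%). It was present in 354 (16.5%) of the 2151 domains outside the long ones made only of peaks with H3K4me3. Domains made only of members lack H3K4me3 overlap by the rule, and H3K9Ac lies mostly within H3K4me3. Their low share thus follows in part from the rule.

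The 5 domains with most members had top scores between 124 and 487. Chr5:56342104-56361822 held 7 peaks over 19.7 kb, filled to 39.4%, with a top score of 124. Chr7:227565252-227575935 held 7 in 10.7 kb, filled to 71.3%, with a top score of 150. Chr6:204513472-204528810 was the stronger of these, with 7 peaks in 15.3 kb and a top score of 487. Chr6:196021629-196040061 held 7 members beside 2 peaks with H3K4me3, and its peaks met H3K9Ac 2 times. Chr2:949119-963167, with 6 members in 14.0 kb and a top score of 358, was the fifth in rank. The domains other than chr6:196021629-196040061 contained neither H3K4me3-overlapping peaks nor H3K9Ac, and no H3K9me3 was found in any of the 5.

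Neither of the other marks was common at the members. H3K9Ac overlapped 16 of the 2935 (0.545%, exact interval 0.312% to 0.884%), against 7.13% of all autosomal H3K27me3 peaks and 13.1% (12.0% to 14.2%) of those with H3K4me3 outside long domains. H3K9Ac lies mostly within H3K4me3, which the rule removed, so this low share follows in part from the choice of members. By bases, H3K9Ac covered 0.204% of the members' sequence and 0.402% of the autosomal span as a whole. In the peaks with H3K4me3 outside long domains it covered 3.85%. The nearest H3K9Ac peak lay at a median of 92.5 kb from a member, and 200 members (6.81%) had one within 5 kb.

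H3K9me3 overlapped 23 members (0.784%, 0.497% to 1.17%), against 1.26% of all autosomal H3K27me3 peaks. The share was 1.21% (0.872% to 1.63%) for peaks with H3K4me3 outside long domains and 1.299% (0.562% to 2.54%) for H3K4me3-free peaks in long domains, and these intervals overlap that of the members. In the peaks with H3K4me3 in long domains it was 4.61% (2.87% to 6.95%). By bases H3K9me3 covered 0.408% of the members, 0.507% of the peaks with H3K4me3 outside long domains and 0.0215% of the autosomal span. Both marks met at 2 members, and 2898 members carried neither.

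**Figure D4:**
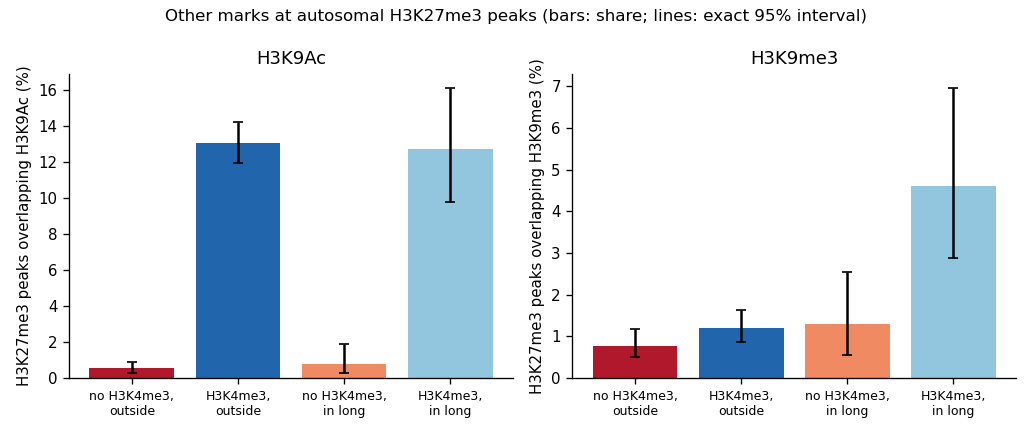
Share of autosomal H3K27me3 peaks (percent) that overlap H3K9Ac (left) and H3K9me3 (right) in each of the 4 classes, with exact 95% intervals as lines. H3K9Ac is at 0.545% in the H3K4me3-free peaks outside long domains and at 13.1% in those with H3K4me3, while the H3K9me3 intervals of the first 3 classes overlap.

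The 16 members with H3K9Ac lay at a median of 45.0 kb from H3K4me3. Of these, 5 lay within 5 kb, against 36.5% of all members. Their scores ran from 50.4 to 368, with a median of 112. The strongest was chr1:66377370-66380222, 2853 bp wide and 81.3 kb from H3K4me3, of which 614 bp lay in H3K9Ac. Chr5:280874602-280877337 (score 322) shared 986 bp with H3K9Ac and lay 46.6 kb from H3K4me3, in a domain of 5 peaks. Chr2:7443481-7444673 (score 128) shared 530 bp and lay 62.6 kb away. By contrast chr8:215526859-215528340 (score 165, 1014 bp shared) and chr1:172867919-172869699 (score 125, 200 bp shared) lay 4.53 and 2.33 kb from H3K4me3.

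Of the 23 members with H3K9me3, 18 were alone in their domain, against 40.9% of all members. Chromosome 7, with 147 of the 2935 members, held 6 of the 23. The strongest, chr1:422178791-422183030, scored 891, spanned 4240 bp and shared 1015 bp with H3K9me3. It lay 5.33 kb from H3K4me3 in a domain of 3 peaks. Chr7:257052899-257056310 (score 527) shared 998 bp and lay 167 kb from H3K4me3, and chr5:32751804-32754958 (score 436) shared 1463 bp and lay 4.51 kb away. The other 2 of the 5 highest-scoring were narrow and lay wholly within H3K9me3. They were chr3:86780276-86780811, 536 bp wide with a score of 496, and chr1:409592045-409592663, 619 bp wide with a score of 222. Such a score is unusual for the width. Of the 561 members that scored 200 or more, only 3 were narrower than 1000 bp, and these were 2 of the 3 (limits chosen after their values were seen).

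Chr1:409592045-409592663 was also among the members farthest from H3K4me3, at 1240 kb. The farthest was chr5:75836322-75837294, with a score of 77.6 and 1987 kb to the nearest H3K4me3 peak. It was followed by chr3:191888015-191889436 with 1494 kb. Chr5:85271831-85272348 and chr1:720234464-720235173 lay 971 and 919 kb away, with scores of 83.1 and 73.5. All 5 were alone, and none was wider than 1422 bp.

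The members were spread over all autosomes. Density ranged from 0.564 members per Mb on chromosome 7 to 1.001 per Mb on chromosome 2, with 0.859 over the autosomes together. Their share of a chromosome's H3K27me3 peaks ran from 35.2% (33.0% to 37.5%) on chromosome 1 to 42.0% (38.8% to 45.2%) on chromosome 4. Chromosome 2 members had the highest median width and median score, 1283.5 bp and 92.4, and were the least often alone (35.1%). Of the 47 members with a score of 1000 or more, however, only 4 lay on chromosome 2. Chromosome 6 members had the lowest median score, 73.8, and chromosome 8 members were most often alone (45.7%). Each autosome had between 33.3% and 39.3% of its members within 5 kb of H3K4me3.

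Along the chromosomes the members were unevenly spread. Of 3422 bins of 1 Mb, 1033 (30.2%) held a member, and 184 bins (5.38%) held 50% of all members. Members of 1 joined domain mostly share a bin. The same counts are not given for other H3K27me3 peaks, so they are not read as particular to the members. The 170 bins with part of a long domain held 19.0% of the members, at 3.28 per bin against 0.731 elsewhere. Those bins held 9.40% of the peaks with H3K4me3 outside long domains. Within 50 kb of a long domain lay 186 members (6.34%). The share of the autosomal span at that distance was not measured, so this value is read as neither high nor low. Members were also more numerous where H3K4me3 peaks were, with 0.0340 per bin in the 471 bins without H3K4me3, 0.899 in bins with 6 to 10 and 3.99 in the 144 bins with 21 or more. Across bins, members and H3K4me3 peaks had a Spearman rho of 0.47. The bins share the same lists and are not independent, so this is a description.

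The densest bin was that from 173 Mb on chromosome 7, with 28 members among 53 H3K27me3 peaks and a top member score of 1120. The bin from 111 Mb on chromosome 1 held 24 members and a further 23 H3K27me3 peaks in long domains, and that from 8 Mb on chromosome 2 held 20 members and 17 such peaks. The remaining bins of the 5, both on chromosome 4, had no long domain. The bin from 397 Mb held 19 members, 10 of them within 5 kb of H3K4me3. In the bin from 384 Mb, which held 45 H3K4me3 peaks, 6 of 18 members were that close, and their median score was only 72.8. No member in the 5 bins overlapped H3K9Ac, and 1 overlapped H3K9me3.

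The ends of the chromosomes were rich in members. The outer 10 Mb at both ends of the 8 autosomes, measured from the first and last peak of any mark, made up 4.68% of the span and held 448 members, 15.3% (14.0% to 16.6%). The same sequence held 6.12% (5.35% to 6.97%) of the peaks with H3K4me3 outside long domains. Density was 2.80 members per Mb there and 0.763 elsewhere, against 1.33 and 1.002 for the peaks with H3K4me3. There were 4.44 members per Mb in the outermost 2 Mb, 2.31 from 2 to 5 Mb, 2.44 from 5 to 10 Mb, 2.07 from 10 to 20 Mb, 1.17 from 20 to 50 Mb and 0.608 farther in. H3K4me3 peaks were also denser toward the ends, at 10.9 per Mb in the outermost 2 Mb and 6.03 per Mb beyond 50 Mb. For every 100 H3K4me3 peaks there were 40.6 members in the outermost 2 Mb and 10.1 beyond 50 Mb. The corresponding numbers for peaks with H3K4me3 outside long domains were 14.9 and 15.9. The H3K4me3-free peaks of long domains numbered 0 in the outermost 2 Mb and 9 from 2 to 5 Mb. From 5 to 10 Mb there were 72 of them, 0.900 per Mb, against 0.281 per Mb from 10 to 20 Mb and 0.147 beyond 50 Mb. A raised density within 10 Mb of the ends was thus not particular to the members.

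**Figure D5:**
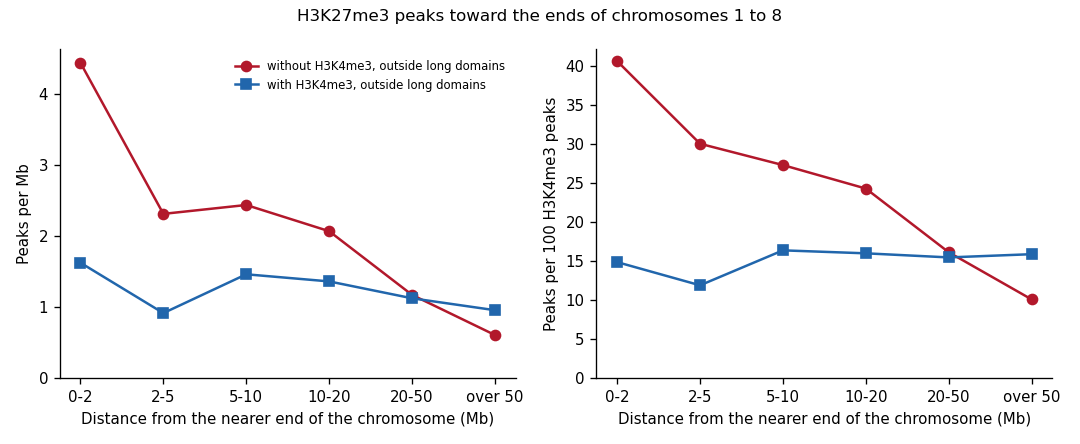
H3K27me3 peaks outside long domains per Mb (left) and per 100 H3K4me3 peaks (right) by distance from the nearer end of chromosomes 1 to 8, without H3K4me3 (circles) and with it (squares). The members go from 4.44 to 0.608 per Mb and from 40.6 to 10.1 per 100 H3K4me3 peaks, while the peaks with H3K4me3 stay between 11.9 and 16.4 per 100.

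The ends were not alike. Members were denser than over their whole chromosome at 12 of 16 ends, and the start of chromosome 2 had most, with 70. The starts of chromosomes 3, 4, 6 and 7 had 4, 1, 2 and 1, below their chromosome's mean. Their far ends had 39, 15, 41 and 30. Without the start of chromosome 2 the density at the ends was 2.52 per Mb. At 9 of the 16 ends members outnumbered peaks with H3K4me3 outside long domains, most clearly at the end of chromosome 3 with 39 against 2. Terminal members lay farther from H3K4me3 than the others, with a median of 22.7 kb against 12.5 kb. Their median score was 96.6 against 80.1, and 3 of the 448 scored 1000 or more. Sequence composition and the completeness of the assembly at the ends were not measured, and their part in these densities was not tested.

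On X the same rule gave 4733 peaks, 57.8% of the 8194 H3K27me3 peaks there, and these are set side by side with the autosomal members. X held 62.0 per Mb against 0.859. The X peaks had a median width of 1030 bp and a median score of 70.4, below the 1160 bp and 81.9 of the autosomal members. Only 2 X peaks scored 1000 or more, against 47 on the autosomes. Their median distance to H3K4me3 was 95.4 kb, 5.92% lay within 5 kb, and 25.2% were alone. H3K9Ac overlapped 7 of them (0.148%) and H3K9me3 overlapped 18 (0.380%). The autosomal members were thus sparser, with higher median scores and shorter distances to H3K4me3, than the peaks the rule finds on X, the chromosome whose paternal copy is silenced in female marsupials.

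The limits of the rule cut through continuous values. Chr4:425617012-425617657 was a member although it touched an H3K4me3 peak edge to edge, and chr3:449395624-449396386 and chr2:136084579-136086154 lay 1 and 3 bp from one. Just outside, chr8:294479554-294480906 shared 8 bp with H3K4me3, and chr2:3302036-3304300 and chr3:429132163-429135359 shared 11 bp each. The longest joined domains that still gave members measured 19.9 kb (chr3:94845060-94864973), 19.9 kb (chr5:304606365-304626229) and 19.8 kb (chr4:99815724-99835563). The shortest left out measured 20.02 kb (chr5:182413615-182433635 and chr3:93073010-93093032) and 20.03 kb (chr1:508520238-508540267), and each of these had 1 peak with H3K4me3.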

How the data were processed

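Chromatin from 2 pools was immunoprecipitated for 4 histone marks and sequenced, giving 8 libraries. Per the labels' protocols, it was digested with micrococcal nuclease. The submitters' processing notes list MACS 1.0.1, Bowtie 1.1.2 and CASAVA 1.7 with no settings. Genome build, control, threshold and any pooling of libraries were not given in the sources used here. The score of each peak is the authors' deposited value, at least 50.0 in each list. Positions are as deposited, with starts counted from 1. Overlap meant at least 1 shared bp, and distances run from edge to edge. Intervals of shares are exact (Clopper-Pearson). The named regions are the 5 highest-scoring, widest, farthest from H3K4me3, and highest-scoring with H3K9Ac or H3K9me3, the 5 fullest bins and domains, and the 3 nearest each limit, of which repeats are printed once. Members and lists were chosen with earlier results of these data known. A gene table of another assembly, mMonDom1.pri, was at hand and not used. The overlap, joining and distance steps were tested on simulated data. Unplaced sequence was left out. Alternatives changed 1 limit of the rule at a time. Computation used Python 3.11.15, numpy 2.4.6, pandas 2.3.3, scipy 1.17.1 and matplotlib 3.10.9.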

Additional observations from a re-analysis of the deposited data

How the results depend on the processing

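No paired analysis was possible because both libraries of a mark name 1 list and the comparisons rest on no test. Each limit of the rule was changed in turn, and the settings for width, score, the share within 5 kb and the chromosome ends were added after the data were seen. The share with H3K9me3 stayed within its interval under all 8 settings, and the share with H3K9Ac and the number of members (within 1.5 times) under 7 and 6 of them. With the top-scoring 50% of H3K4me3 peaks there were 4859 members, 2.76% with H3K9Ac, at a median of 77.4 kb from H3K4me3, 9.22% within 5 kb, 43.9% alone, 12.4% at the chromosome ends, with medians of 1345 bp and score 101. Under that setting members overlapped H3K9me3 more often than peaks with H3K4me3 outside long domains (1.13% against 0.644%), the reverse of the main order. Within the top-scoring 50% of H3K27me3 peaks 971 members were left, 31.0% alone, 33.8% within 5 kb and 18.4% at the ends, with medians of 2194 bp and score 222.5. Requiring 1 kb to H3K4me3 gave a median distance of 22.9 kb, 22.7% within 5 kb and 44.3% alone. With domains called long above 10 kb the median distance was 16.8 kb, 34.4% lay within 5 kb, 49.7% were alone, and the medians were 1108 bp and score 77.0. Of the 24 named members 14 met the rule under that setting, and none of the 7 named as strongest or widest did, since each is wider than 10 kb. Within the top-scoring 50% of H3K27me3 peaks 18 of the 24 did. Above 40 kb the values were 11.6 kb, 35.8% alone, 1211 bp and score 87.0. Joining under 2.5 kb or 10 kb gave 45.6% or 38.6% alone. An overlap of 50% of the shorter peak gave 13.9% at the ends and medians of 1236 bp and score 88.9. Under every setting a larger share of members than of peaks with H3K4me3 outside long domains lay at the chromosome ends. Depth is unknown, and marks under the authors' threshold are not listed.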
